A study of Drosophila melanogaster with 3 samples.

Results

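The spalt complex of Drosophila melanogaster, the neighbouring genes salr and salm on chromosome arm 2L, was examined for binding of the Hox protein Ultrabithorax (Ubx). Its HA-Ubx peaks were taken as those of the deposited list with a midpoint from 11350000 to 11465000 on 2L, in coordinates of the dm3 genome build. These were 5 peaks, of 1789 on 2L and 10337 in the whole list. The interval was chosen by position, with earlier results of the list known, and the scores did not enter the rule. The cells were S2-DRSC, a cell line from late embryos, with a stably integrated gene for Ubx carrying an HA epitope tag. All samples, the input included, came from cells exposed to copper sulphate (10 micromolar, 24 h). Chromatin was immunoprecipitated with an antibody against HA in 2 replicates, and 1 input sample accompanied them. Both replicates share 1 list of peaks, so no value below has a replicate error, and no test between samples could be made. The labels do not say whether the replicates are separate cultures or which promoter drives the tagged gene.

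Ubx sets the identity of the hindmost thoracic segment, where the hindwing appendage becomes a haltere instead of a wing. The genes salm and salr encode related zinc finger transcription factors. In the wing disc they are switched on by Dpp, a BMP-type morphogen, across the centre of the wing pouch, where they act in growth and vein placement. In the haltere disc Ubx keeps them silent in the pouch, and salm is a classic example of a gene that Ubx represses directly through an enhancer. The S2-DRSC line is not haltere tissue, and the peak list holds no measure of transcription, so the peaks describe where tagged Ubx was found in these cells and not what it did to either gene. Both genes were matched by symbol in the RefSeq gene table of Release 6. In that table's order, 1 gene, the long noncoding RNA gene lncRNA:CR43681, lies between salr and salm. On the outer sides the next genes are lncRNA:CR44586 beside salr and lncRNA:CR46454 followed by sala beside salm. Release 6 is not the build of the peaks, so no peak is assigned here to a promoter, intron or intergenic stretch of either gene. That the interval holds the spalt complex comes from the rule that defined it and was not checked against a dm3 annotation. For the same reason no bound sequence is shown.

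The spalt interval held 5 HA-Ubx peaks, some of them among the highest-scoring of the list. The score used here is the value that the authors deposited with each peak. Its quantity is not stated, so it serves only to rank peaks within the list. From the low to the high coordinate, peak 1 lay at 11358243 to 11358994, was 752 bp wide and scored 64.7, which ranked 675 in the list and 129 on 2L. Peak 2 lay at 11382456 to 11383138, was 683 bp wide and scored 29.6, which ranked 4022 in the list and 741 on 2L. Peak 1 thus stood in the top 10% of the list, and peak 2 not far above the median of 25.5 on 2L.

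The strongest signals stood at the high-coordinate side of the interval. Peak 3, at 11445334 to 11446716, was the widest of the interval with 1383 bp and scored 81.9, rank 251 in the list and 54 on 2L. Peak 4, at 11447383 to 11448102, was 720 bp wide and scored 119, rank 10 in the whole list and 3 on 2L. The highest score on 2L was 174. Peak 5, at 11459486 to 11459883, was the narrowest with 398 bp and scored 31.1, rank 3726 in the list and 685 on 2L. The interval therefore held very high scores beside moderate ones.

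**Figure D1:**
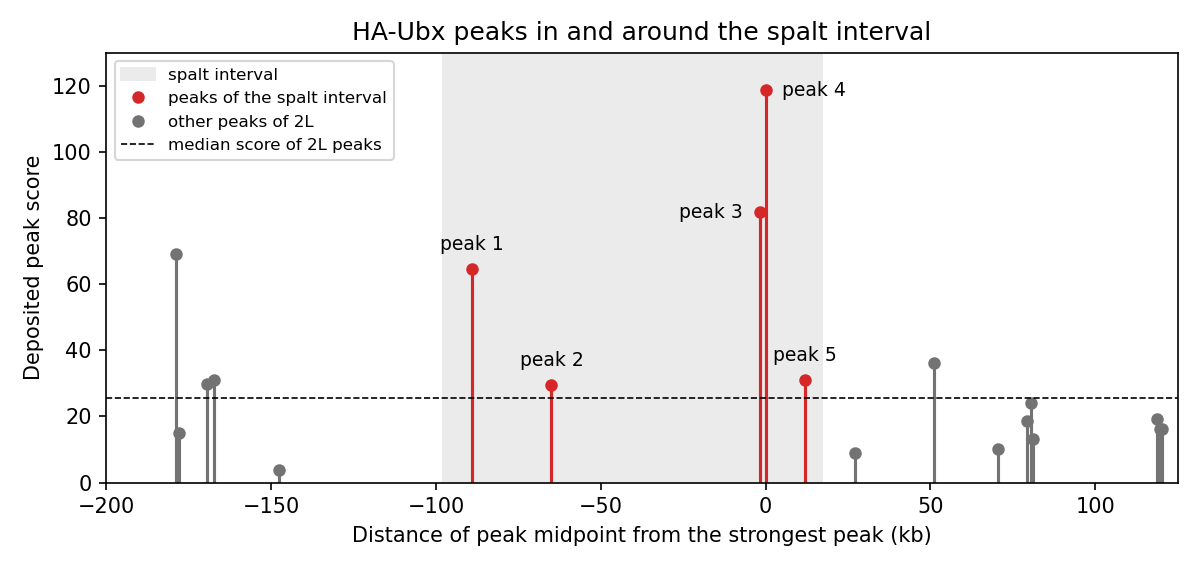
Deposited score of each HA-Ubx peak (vertical axis, no stated unit) against the distance of its midpoint from the strongest peak of the spalt interval (horizontal axis, kb). Red points are the 5 peaks of the interval, grey points other 2L peaks, the shaded band the interval and the dashed line the 2L median of 25.5. All 5 red points lie above that line, and the peaks scoring 81.9 and 119 stand side by side.

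All 5 peaks scored above the median of 2L and above that of the whole list, 24.9. Of the 5, 1 belonged to the top 1% of the list by score, a class that held 1.06% of all 2L peaks. The top 5% held 2 of the 5, against 5.93% of the 2L peaks. The top 10% held 3 of the 5, against 10.8% of the 2L peaks. No further member was gained down to the top 25%, which held 3 of the 5 and 25.8% of the 2L peaks. The top 50% held all 5, against 51.7% of the 2L peaks. With 5 peaks, each of them moves such a share a great deal, and these counts are a description. The score of peak 2 occurs in 20 peaks of the list and that of peak 5 in 17, identical to every deposited decimal, so the ranks given for them are the first of a tied run. The scores of the other members occur once in the list.

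**Figure D2:**
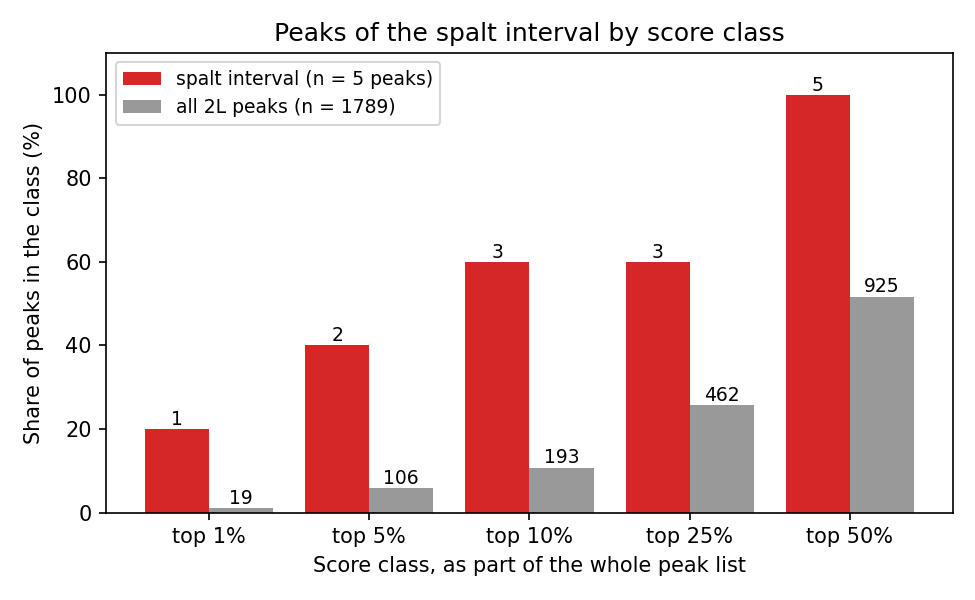
Share of peaks (vertical axis, percent) that fell in the top 1, 5, 10, 25 and 50% of the whole list by deposited score (horizontal axis). Red bars are the 5 peaks of the spalt interval and grey bars all 1789 peaks of 2L, with the number of peaks above each bar. The top 10% held 3 of the 5 and 193 of the 2L peaks.

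The widest peak of the interval was not the strongest. The median width of the 5 peaks was 720 bp, against 600.5 bp for the other peaks of 2L, and 4 of the 5 were wider than the 2L median. Peak 4, the strongest, was of ordinary width, since 38.2% of the 2L peaks were at least as wide. Peak 4 is 1 of the 19 peaks of 2L in the top 1% by score, whose widths ran from 401 to 3090 bp. Their median of 720 bp is the width of peak 4 itself, as is the median of the 5 peaks. That the medians are equal is therefore no separate result. Peak 3 was wider than most, with 10.3% of the 2L peaks at least as wide. Peak 5 was narrow, with 79.7% of them at least as wide.

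Spacing was uneven. The edges of peaks 1 and 2 were 23461 bp apart, and those of peaks 2 and 3 were 62195 bp apart. Peaks 3 and 4 were separated by 666 bp, and 11383 bp separated peak 4 from peak 5. The peaks thus fell into a widely spaced pair on the low-coordinate side and a group of 3, spanning 14550 bp from edge to edge, on the other side. The peak-free stretch between them took up 54.1% of the interval. Of the 1788 gaps between adjacent 2L peaks, whose median was 3855.5 bp, 71 (3.97%) were at least that long.

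Peaks 1 and 2 were each other's nearest neighbours, with midpoints 24178.5 bp apart, and 3.24% of the 2L peaks had their nearest midpoint at least that far away. Peaks 3 and 4, with midpoints 1717.5 bp apart, were ordinary in this respect, because 59.0% of the 2L peaks had a nearest midpoint at least as far. The midpoint of peak 5 was 11942 bp from that of peak 4, a distance reached by 9.22% of the 2L peaks.

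The adjacent peaks 3 and 4 both scored high. This pair was picked out after its values had been seen. On 2L, 474 adjacent pairs of peaks had edges less than 1000 bp apart, and the median score of the weaker partner was 18.04. In the spalt pair the weaker partner scored 81.9, a value reached by the weaker partner in 2 of the 474 pairs, the spalt pair included. In the whole list it was reached in 11 of 2521 such pairs. Whether these are separate binding regions or parts of 1 region reported as separate peaks was not tested.

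Set against windows of equal length, the spalt interval had fewer peaks than most of 2L. The arm was divided from its first position into windows of 115001 bp, and 198 complete windows that did not touch the interval were used. The interval held 5 peaks, or 43.5 per Mb, against a median of 8 peaks per window (interquartile range 4 to 13, range 0 to 32) and 78.0 per Mb over all windows. More peaks were found in 130 of the windows, as many in 10 and fewer in 58. Peaks covered 3936 bp of the interval, or 3.42% of it, against a median of 5895.5 bp per window and 6.07% over all windows, and 63.6% of the windows had at least as much covered length. The 5 fullest windows, at 12420109 to 12535109, 16445144 to 16560144, 460005 to 575005, 7935070 to 8050070 and 12995114 to 13110114, held between 26 and 32 peaks. The median score was 64.7 in the spalt interval, and in these windows it ran from 21.9 to 34.04. By count and by coverage the interval was thus on the lower side, but inside the interquartile range of the arm. Among the upper 50% of the list by score, 42.1% of 197 windows had at least as many peaks and 40.6% as much covered length. All 5 peaks scored above the list median and so stayed by construction. The lower shares therefore follow from the scores and are no separate result on count or coverage.

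By its median and its highest score the interval stood near the top of the arm, and less so by its number of high-scoring peaks. Its median score was 64.7, against a median of 25.4 over the 164 windows with at least 3 peaks (interquartile range 20.9 to 30.6, highest 70.4). Of those windows, 2 (1.22%) had a median score at least as high. The median of the interval is the score of peak 1. With peaks under 1000 bp apart joined it fell to 47.9, and 4.61% of 152 windows were at or above it. Among the upper 50% of the list by score, 4.84% of 124 windows had a median of at least 64.7. The peaks of the interval all stay under this filter by construction, so only the medians of the other windows could change. The highest score of the interval was 119, against a median of 58.1 for the highest score of a window (interquartile range 39.2 to 77.6). In this measure the 9 windows without peaks counted as 0. A single window of the 198, at 14490127 to 14605127 with 8 peaks, had a higher score than the interval, 174. At least 1 peak of the top 1% of the list was found in 17 of the 198 windows or 8.59%. At least 2 of the top 5% were found in 25 (12.6%), at least 3 of the top 10% in 23 (11.6%) and at least 3 of the top 25% in 78 (39.4%). None of the 10 windows with 5 peaks reached the interval in either measure. Their highest scores had a median of 64.9 and a maximum of 77.8, and their median scores had a median of 23.6. The median distance between adjacent midpoints was 18060 bp in the interval against 4424 bp over the 164 windows. Of these, 5 (3.05%) had a median spacing at least as large. That share was 19.4% of 124 windows among the upper 50% of the list by score, where only the other windows lost peaks. It was 7.24% of 152 windows once peaks with edges under 1000 bp apart had been joined. Spacing is tied to the number of peaks in a window, which was on the lower side here. In the 10 windows with 5 peaks the median spacing ran from 2404 to 14237 bp.

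**Figure D3:**
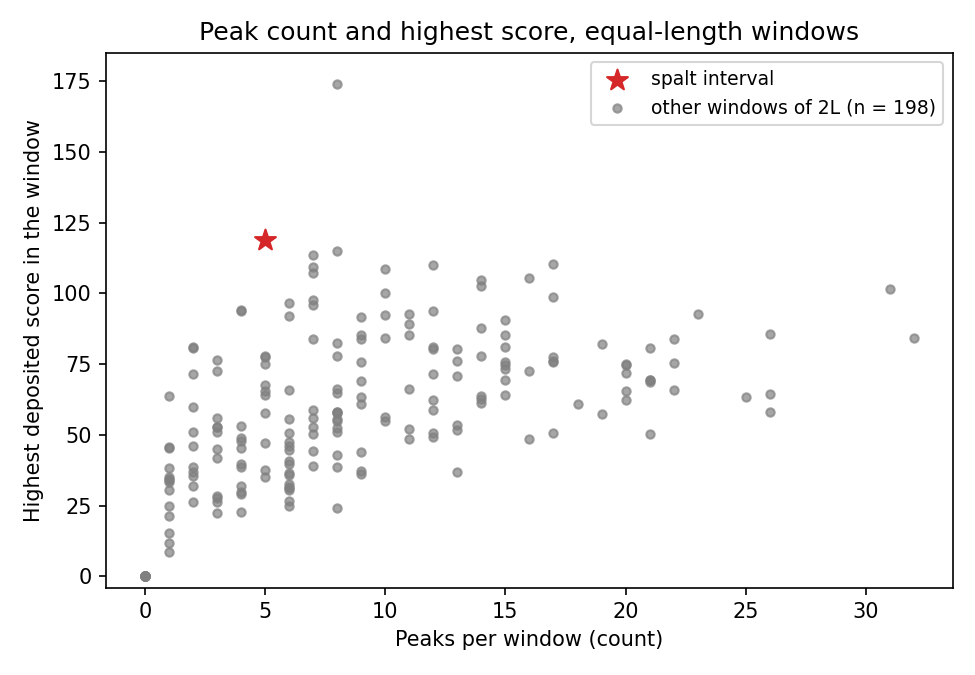
Highest deposited score in a window (vertical axis, no stated unit) against its number of HA-Ubx peaks (horizontal axis). The star is the spalt interval with 5 peaks and a highest score of 119, and the grey points are the 198 other windows of 2L of the same length. The window with the score of 174 is the only point above the star.

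The windows on either side of the interval had a lower median score and a lower highest score than the interval. The window of the same length just before it also held 5 peaks, but they covered 1915 bp, had a median score of 30.0 and reached 69.1. That highest score was above the 64.7 of peak 1. Both scores exceeded the medians over the windows of 2L, which were 25.4 and 58.1. The window just after it held 9 peaks that covered 4622 bp, with a median score of 16.3 and a highest score of 36.04. The nearest peaks beyond the limits of the interval were weak. Before it, a peak of 187 bp at 11300001 to 11300187 scored 3.84, with its midpoint 49.9 kb outside the limit. After it, a peak of 269 bp at 11474909 to 11475177 scored 8.85, with its midpoint 10.04 kb outside. The outermost members lay 8.62 kb and 5.32 kb inside the limits, so moving either limit by up to 5 kb would leave the members as they are. Larger inward moves do not: with 20000 bp removed from each side only peak 2 was left, and its score of 29.6 was reached by the highest score in 77.0% of 304 windows of that length.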

How the data were processed

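The authors deposited 1 peak list for both HA-Ubx immunoprecipitation replicates. Its 5 columns have no header. The submitters' processing notes name BWA 0.7.12, MACS2 and build dm3. The thresholds, the use of the input and the way replicates were combined stand in none of the sources used. Column 5 is a score that the authors deposited per peak, of unstated quantity. The depth behind it is unknown, as reads and signal were not analysed here. Starts were shifted to 1-based positions. Window shares were computed over the span of 2L up to its last peak end, in Python 3.11.15 with numpy 2.4.6, pandas 2.3.3, scipy 1.17.1 and matplotlib 3.10.9. Windows with fewer than 3 peaks gave no median. No test was run. Counting was checked on simulated peaks. Members and measures were chosen with earlier results of these data known, and the close pair after seeing its values. The text names all members, the nearest peak on each side and the 5 windows with the most peaks, and, chosen after its values were seen, the window with a higher score. Alternatives covered score limits, joining, overlap, window placement and interval length. Mappability was not examined.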

Additional observations from a re-analysis of the deposited data

How the results depend on the processing

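The highest score kept its value of 119 and a share of windows at or above it of at most 0.777% in every alternative run except the shortened interval. With 20000 bp removed from each side, 1 peak was left. Its score was 29.6, reached by 77.0% of windows, the covered length was 683 bp, and 88.8% and 81.9% of windows had at least as many peaks and as much coverage. With 20000 bp added to each side, there were 6 peaks (76.0% of windows at or above) and the covered length was 4205 bp (73.3%). The median score was then 47.9 (3.03% of windows at or above) and the median spacing 15358.5 bp (6.06%). Over only the upper 50% of the list by score, the shares of windows at or above were 42.1% for count, 40.6% for coverage, 4.84% for median score and 19.4% for spacing. The interval kept all its peaks and values there by construction, so these shares reflect changes in the other windows only. Joining peaks less than 1000 bp apart gave a covered length of 4602 bp, a median score of 47.9 (4.61% of windows at or above) and a median spacing of 24178.5 bp (7.24%). A score minimum of 5, membership by overlap of 1 bp, offset windows, windows sliding by 5000 bp and, chosen after seeing the data, windows of the 5 large arms left values unchanged. Shares stayed inside the exact 95% binomial interval of the share reported above. That interval is a wide limit where few windows were at or above, and windows of an arm are not a random sample. In these alternatives the share ran from 0.342% to 2.45% for the median score and from 3.05% to 5.24% for spacing. The shortened interval gave no median. No replicate could be left out. No paired analysis was possible because both replicates share 1 list.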
